A study of Mus musculus with 3 samples.

Results

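Janus kinases (JAKs) and signal transducers and activators of transcription (STATs) carry most cytokine signals from the membrane to the nucleus. The 9 genes described here are Jak1, Jak2, Jak3, Stat2, Stat3, Stat4, Stat5a, Stat5b and Stat6, chosen by symbol in the GENCODE M21 annotation, out of 55536 genes in the deposited tables. They hold 58 annotated transcripts. Other genes of these families are not analysed here. Polyadenylated RNA was sequenced from mouse regulatory T cells (Tregs), the CD4 T cells that hold immune responses in check under the transcription factor Foxp3. The cells had experienced inflammation and came from 1 donor of 12 weeks of age. The labels give 1 biosample and 3 libraries, called technical replicates of 1 biological replicate, which leaves a single group and no comparison between conditions. How inflammation was induced, the sort and the donor's sex are not given in the sources used here. Values follow as libraries 1, 2 and 3, and errors are standard deviations (SD) over these 3 libraries. These errors show the spread between libraries labelled technical and not between mice. The labels do not say which step was repeated.

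The cytokine receptors of this pathway have no kinase of their own. A JAK bound to the receptor's tail phosphorylates it when ligand brings the chains together, a STAT docks there, is phosphorylated on a tyrosine near its C-terminus, pairs with another STAT and enters the nucleus. In Tregs the best known route runs from interleukin-2 through Jak1 and Jak3 to Stat5a and Stat5b, which sustain Foxp3, while Stat3, Stat4, Stat6 and Stat2 serve other cytokines that T cells meet during inflammation.

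The libraries held 35652707, 31665170 and 37810591 expected counts. An expected count is the number of reads that a model assigns to a gene. Per member it lay between 3956, for Stat2 in library 2, and 46014, for Jak1 in library 3. All 6 Treg and T cell markers were detected, that is, at a TPM of at least 1 in every library (TPM is transcript abundance per length, scaled to 1 total per library). Foxp3 stood at 98.1, 98.4 and 96.5 TPM. All 4 B cell markers were also detected, with summed TPM of 55.6, 60.3 and 53.2, as were 2 of 5 CD8 and natural killer markers, with sums of 21.7, 29.9 and 19.02 TPM, and 1 of 5 myeloid markers, with sums of 3.96, 2.45 and 4.45 TPM. Of 6 epithelial and gland markers 3 were detected, and all 6 summed to 39.9, 36.9 and 51966 TPM, so library 3 carried abundant gland transcripts such as Bpifa2. TPM has a fixed total, and 7 of the 9 members had their lowest TPM in library 3. After scaling by trimmed means of gene-wise ratios (TMM), which sets libraries against each other by their bulk of genes, 4 of 9 did. The part that RNA of other cells had in the members' levels was not tested. In bulk RNA, fewer cells expressing a gene and less of its RNA per cell cannot be told apart.

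Most members have little coding sequence in common. The exception is Stat5a and Stat5b, neighbours on chromosome 11 (mm10), where Stat5b (ENSMUSG00000020919.11, chr11:100780731-100850724, minus strand), Stat5a (ENSMUSG00000004043.14, chr11:100859351-100885169, plus strand) and Stat3 (ENSMUSG00000004040.16, chr11:100885098-100939540, minus strand) lie within 158.8 kb. The leading coding sequences of Stat5a and Stat5b were 90.7% identical, against 56.2% to 65.1% for the other STAT pairs and 57.1% to 60.8% for the JAK pairs. The longest run shared without a difference had 324 bases and starts at coding base 571 in both (in Stat5a at base 100874023 of chromosome 11, plus strand). Its first 300 bases are printed because a read that falls inside them fits both genes:
Stat5a and Stat5b shared run: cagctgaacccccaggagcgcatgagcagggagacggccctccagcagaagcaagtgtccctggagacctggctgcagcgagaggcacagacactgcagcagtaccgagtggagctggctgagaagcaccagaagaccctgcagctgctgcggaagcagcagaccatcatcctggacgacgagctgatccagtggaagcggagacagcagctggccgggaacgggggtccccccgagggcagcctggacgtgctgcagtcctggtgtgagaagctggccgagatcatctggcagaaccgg
In all, 608 windows of 50 bases occurred in both genes, which was 8.21% of the windows of Stat5a and 10.98% of those of Stat5b. The authors' posterior SD of the count was 0.53% to 0.54% of the count for Stat5a and 0.20% to 0.24% for Stat5b, while it was 0 for Jak1, Jak2 and Stat6.

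Some alternative transcripts of Stat3 and Stat5a differ by short pieces at or near the C-terminal tyrosine that activates a STAT. The coding sequences of Stat3-203 and Stat3-201 differ by 3 bases (chr11:100893074-100893076, minus strand), shown in capitals. These bases add a serine codon, number 701, shortly before the activating tyrosine at codon 705:
Stat3-203: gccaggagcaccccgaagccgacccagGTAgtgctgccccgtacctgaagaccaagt
Stat3-201: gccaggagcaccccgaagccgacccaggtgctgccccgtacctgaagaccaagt
Stat3-202 lacks 50 bases (chr11:100889541-100889590, minus strand) at the start of an exon, in capitals below, and ends after 722 codons in place of 770. This is the beta form, which lacks the usual C-terminal activation domain:
Stat3-203 tail: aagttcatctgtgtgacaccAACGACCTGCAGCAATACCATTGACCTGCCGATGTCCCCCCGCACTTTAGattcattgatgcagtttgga
Stat3-202: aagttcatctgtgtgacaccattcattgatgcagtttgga
Stat5a-203 skips an exon of 52 bases (chr11:100881738-100881789, plus strand), in capitals, that holds tyrosine codon 694, the residue whose phosphorylation activates Stat5a. Since 52 is not a multiple of 3, the codons after this exon are read in another frame. Stat5a-203 has 797 codons in place of 793:
Stat5a-202: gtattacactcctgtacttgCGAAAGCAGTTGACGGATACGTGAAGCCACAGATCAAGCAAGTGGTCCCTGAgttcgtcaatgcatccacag
Stat5a-203: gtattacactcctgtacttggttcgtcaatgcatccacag

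All 9 members were detected, and all 9 reached a TPM of at least 10 in every library. As background, 23.2% of all genes and 47.6% of 22028 protein-coding genes were detected, and 35.5% of protein-coding genes reached a TPM of at least 10. The median of the 9 mean levels was 152 TPM, beside 1.04 TPM over all protein-coding genes. By mean TPM the order was Jak1, Stat3, Stat6, Jak3, Stat4, Stat5b, Stat5a, Jak2 and Stat2.

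**Figure D1:**
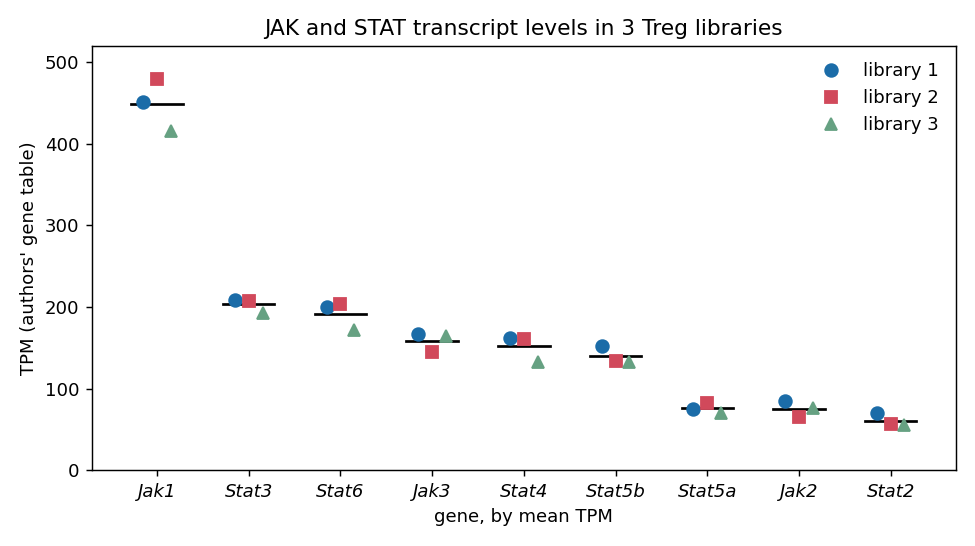
TPM (vertical axis, from 0) of the 9 genes in order of mean level, with 1 point per library and a black line at the mean of 3 libraries. Jak1 stands alone at 415 TPM or more, 5 genes lie between 132 and 209 TPM, and Stat5a, Jak2 and Stat2 lie below 85 TPM.

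Among the kinases Jak1 had the highest TPM. Jak1, which pairs with many receptors of the common gamma, gp130 and interferon classes (ENSMUSG00000028530.14, chr4:101152367-101265282, minus strand), had 451.63, 479.75 and 415.16 TPM (448.8 ± 32.4). It ranked first of the 9 in every library and place 261 of 22028 protein-coding genes. Jak3, the kinase of the common gamma chain (ENSMUSG00000031805.17, chr8:71676296-71690575, plus strand), had 166.73, 144.35 and 164.93 TPM (158.7 ± 12.4). Jak2, known for receptors of interferon-gamma, interleukin-12 and the blood-forming hormones (ENSMUSG00000024789.13, chr19:29251828-29313080, plus strand), had 84.91, 64.76 and 76.48 TPM (75.4 ± 10.1). The ranges of the 3 kinases did not overlap.

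Jak1 was 2.83-fold above Jak3 in mean TPM, a difference of 1.49 ± 0.21 on the log2(TPM + 1) scale, and 5.95-fold above Jak2, a difference of 2.56 ± 0.27. Jak3 was 2.10-fold above Jak2 (1.07 ± 0.09). The second deposited gene table holds M4 counts, which run low beside expected counts for some very abundant genes, as described further on. It kept this order but gave Jak1 per kilobase only 1.11-fold over Jak3 (0.15 on the log2 scale) and 1.91-fold over Jak2 (0.93). Each of these differences had the same sign in 3 of 3 libraries and a two-sided exact sign-flip permutation p of 0.25, which is the smallest that 3 libraries can give. Of the summed TPM of the 3 kinases, Jak1 took 64.2%, 69.6% and 63.2%, Jak3 took 23.7%, 20.95% and 25.1%, and Jak2 took 12.1%, 9.40% and 11.6%.

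Among the STATs, Stat3 and Stat6 had the highest TPM in every library. In M4 counts per kilobase Stat4 was above both, with Stat3 minus Stat4 at -0.41 and Stat6 minus Stat4 at -0.18 on the log2 scale. Stat3, used by interleukin-6, interleukin-10, interleukin-21 and interleukin-27, had 208.67, 207.49 and 193.29 TPM (203.2 ± 8.56). Stat6, the factor of interleukin-4 and interleukin-13 (ENSMUSG00000002147.18, chr10:127642986-127660957, plus strand), had 200.12, 203.72 and 171.51 TPM (191.8 ± 17.6). Their ranges overlapped, and the difference of 0.086 ± 0.076 on the log2(TPM + 1) scale was not called.

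Stat4, Stat5b and the kinase Jak3 formed a middle group with overlapping values. Stat4, the factor of interleukin-12 (ENSMUSG00000062939.11, chr1:51987148-52107189, plus strand), had 162.61, 161.14 and 132.09 TPM (151.9 ± 17.2). Stat5b had 152.42, 133.51 and 132.37 TPM (139.4 ± 11.3). Stat4 was the higher of these 2 STATs in libraries 1 and 2 but not in library 3, and Stat4 minus Stat5b was 0.12 ± 0.14 on the log2 scale.

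Stat5a and Stat2 were the lowest STATs. Stat5a had 74.91, 82.48 and 69.76 TPM (75.7 ± 6.40). Stat2, the partner of Irf9 in the factor that type I interferon activates (ENSMUSG00000040033.16, chr10:128270559-128292849, plus strand), had 70.25, 57.18 and 54.97 TPM (60.8 ± 8.26) and was the lowest of the 9 in every library. Of the 2 copies of Stat5, which share most of their targets, Stat5b was 1.84-fold above Stat5a. That difference, 0.87 ± 0.17 on the log2 scale, had 1 sign in 3 of 3 libraries (two-sided exact sign-flip permutation p = 0.25, the smallest possible), and the ranges did not overlap. In M4 counts per kilobase it was 0.087 and not apart. The 6 STATs together summed to 869, 845.5 and 754 TPM, and the 3 kinases to 703.3, 688.9 and 656.6 TPM.

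A pair of genes was called apart when one gene exceeded the other in every library, their TPM ranges were separate, and so were the authors' intervals for both genes within each library. Of 36 pairs, 29 were apart by this rule. Among the 8 pairs of neighbours in the order only 3 were apart, Jak1 over Stat3 (2.21-fold), Stat6 over Jak3 (1.21-fold) and Stat5b over Stat5a. Among the other pairs that were not apart, Jak3 minus Stat4 was 0.065 ± 0.24, Jak3 minus Stat5b 0.19 ± 0.11, Stat5a minus Jak2 0.012 ± 0.29, Jak2 minus Stat2 0.31 ± 0.15 and Stat5a minus Stat2 0.32 ± 0.22. By this rule the genes formed 1 top gene, Jak1, and 3 groups without a called difference inside them, Stat3 with Stat6, then Jak3 with Stat4 and Stat5b, then Stat5a with Jak2 and Stat2.

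The order rests in part on the counting. The second deposited gene table, of whole-number counts against annotation M4, gave Jak1 6931, 6847 and 6943 counts, where the expected counts were 44921, 41465 and 46014. It gave Jak2 4232, 3205 and 4065 counts against 9034, 5914 and 8720. The ratio of expected to M4 counts was 6.39 for Jak1, 5.21 for Stat5b, 4.07 for Stat3 and 2.04 for Jak2. The tables thus differ by an unequal factor from gene to gene. Outside the members, Bpifa2 had 848297 TMM-scaled expected counts but 1790 M4 counts in library 3. In library 1 these values were 84194 and 7514 for Ptprc, and 3462 and 1704 for the less abundant Foxp3. Differences between members in M4 counts can carry this unequal factor. The cause was not tested. The gene length used here is the mean of the lengths given with the M21 expected counts, not an M4 length. Per kilobase of it the M4 counts put Jak1 first with 1512, then Stat4 with 1425, Jak3 with 1366, Stat6 with 1254 and Stat3 with 1073. Below these lay Jak2 with 798, Stat2 with 616, Stat5b with 576 and Stat5a with 542. Jak1 was the highest in both tables. By M4 counts, 31 of 36 pairs were apart without a condition on bounds, 22 of them apart in the same direction as in TPM, and 4 were apart in opposite directions, namely Stat3 minus Jak3 (-0.35), Stat3 minus Stat4, Stat6 minus Stat4 and Stat5b minus Jak2 (-0.46). Stat6 minus Jak3 was -0.12 there and Jak1 minus Stat3 fell to 0.50 on the log2 scale.

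**Figure D2:**
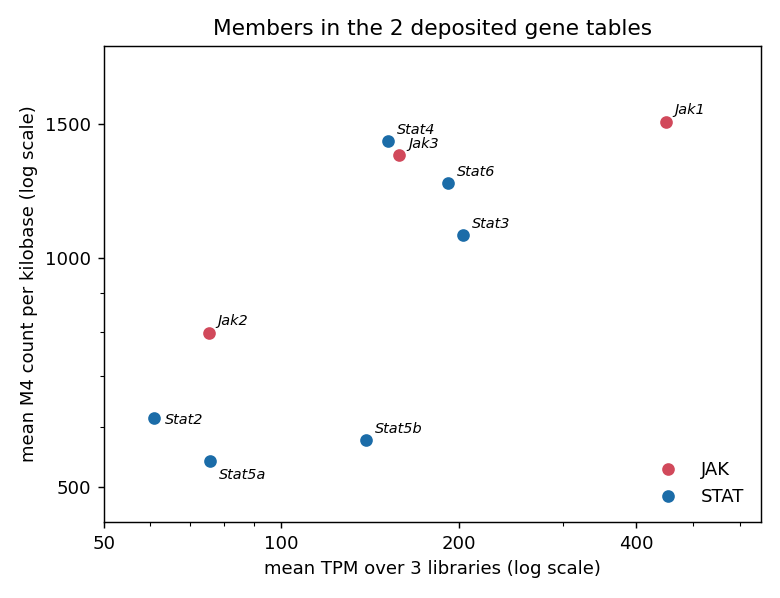
Mean TPM over 3 libraries (horizontal, log scale) against the mean M4 count per kilobase of M21 gene length (vertical, log scale). Each gene is 1 point, with JAKs in red and STATs in blue. Jak1 is highest on both axes, while Stat5b lies at 139 TPM but only 576 M4 counts per kilobase.

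Most members were read mainly from 1 protein-coding transcript. The authors' transcript tables give each transcript's percent of the gene's TPM. Jak1-201 took 91.8%, 90.4% and 93.9% of Jak1, Jak2-202 took 94.4%, 90.1% and 91.2% of Jak2, and Stat6-201 took 87.4%, 86.0% and 89.2% of Stat6. Stat4-202 followed with 82.4 ± 1.1%, Stat5a-202 with 79.3 ± 8.7%, Stat2-201 with 73.5 ± 3.8%, Stat3-203 with 71.8 ± 3.4% and Stat5b-201 with 68.0 ± 5.7%. These shares come from a model that divides reads by the stretches in which transcripts differ, and those stretches are short for many of them. Stat3-203 has 61 windows of 50 bases that no other annotated transcript holds, and Stat2-201 has 2. Such counts are also set against transcripts without reads, such as Stat2-202.

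**Figure D3:**
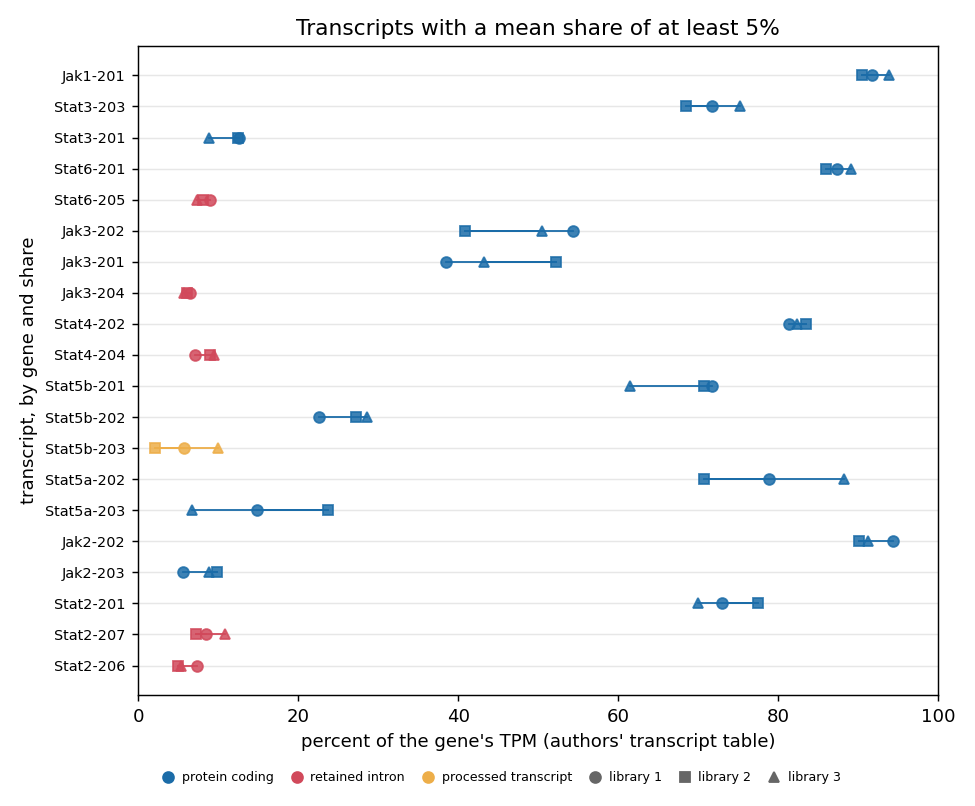
Percent of the gene's TPM (horizontal axis) for each transcript with a mean share of at least 5%, grouped by gene, with 1 symbol per library and the colour giving the annotated type. Jak3-202 and Jak3-201 cross between libraries, while Jak1-201, Jak2-202 and Stat6-201 stay above 85%.

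Jak3 had no stable leading transcript. Jak3-202 took 54.4%, 40.8% and 50.4%, and Jak3-201 took 38.4%, 52.3% and 43.2%, so Jak3-201 led in library 2 alone. Jak3-201 has 0 windows that no other annotated transcript holds and Jak3-202 has 53. These counts are also set against transcripts without reads, such as Jak3-203, so they do not measure how well these 2 are told apart. Both encode 1100 codons and differ at their ends. The last exon of Jak3-201 (chr8:71690172-71690575) lies inside Insl3, a hormone gene on the same strand, and 355 windows of Jak3, 6.53%, are also in Insl3. Insl3 was given 747, 474 and 759 expected counts, with posterior SDs of 25.5, 21.6 and 24.7, the same as those of Jak3 in each library. Reads in the 355 shared windows can be given to either gene, so both levels are uncertain by that part.

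The activating tyrosine exon was present in most Stat5a transcripts. Of the TPM of Stat5a-202 and Stat5a-203, the transcript that skips it (Stat5a-203) took 15.9%, 25.1% and 7.08% (16.0 ± 9.0%). The share in library 2 was above that in library 1, and library 3 was the lowest. Stat5a-203 has 49 windows of its own among all annotated transcripts, so few reads may decide this share. Both transcripts also begin with different first exons and hold 20 (Stat5a-202) and 18 (Stat5a-203) exons, so the share covers the annotated transcript as a whole and not the skipped exon alone.

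Stat3 was read mainly as Stat3-203, which holds the serine codon. Of the TPM of Stat3-201 and Stat3-203, Stat3-201, which lacks the codon, took 14.96%, 15.4% and 10.5% (13.6 ± 2.7%). The 2 transcripts also differ in their 3′ ends and in length, with 2927 bases in Stat3-201 and 4516 in Stat3-203. This share therefore covers the annotated transcript as a whole and not the serine codon alone. The beta form Stat3-202, described because of its known function and after its values were seen, took 0.723%, 1.72% and 0.928% of the TPM of these 3 coding transcripts (1.12 ± 0.52%). In the annotation Stat3-202 also has a last exon that runs 1712 bases further, which makes up most of its 1737 own windows. Its share covers the annotated transcript as a whole, so beta-type splicing with a shorter end would be counted elsewhere.

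Stat4 and Stat5b each have 2 coding transcripts that start at different places and encode the same number of codons, 748 and 786. Of the TPM of Stat5b-201 and Stat5b-202, the downstream-starting Stat5b-202 took 23.9%, 27.8% and 31.8% (27.8 ± 3.9%). Of Stat4-201 and Stat4-202, the downstream-starting Stat4-201, named after its values were seen, took 6.08%, 4.26% and 4.62% (5.0 ± 1.0%). The upstream start led in both genes and in all 3 libraries. The starts are 28.2 kb apart in Stat5b and 21.1 kb apart in Stat4. The RefSeq windows from 250 bases before to 50 bases after the start nearest to each (GRCm38.p6) are shown so that both can be compared:
Stat5b upstream (chr11:100850532-100850831, minus strand): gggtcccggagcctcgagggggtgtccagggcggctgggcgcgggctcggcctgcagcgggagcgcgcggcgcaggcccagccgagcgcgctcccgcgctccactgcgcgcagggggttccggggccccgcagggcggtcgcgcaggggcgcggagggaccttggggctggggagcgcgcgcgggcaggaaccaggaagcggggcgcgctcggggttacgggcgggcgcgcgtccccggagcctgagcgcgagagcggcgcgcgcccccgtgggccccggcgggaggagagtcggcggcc
Stat5b downstream (chr11:100822521-100822820, minus strand): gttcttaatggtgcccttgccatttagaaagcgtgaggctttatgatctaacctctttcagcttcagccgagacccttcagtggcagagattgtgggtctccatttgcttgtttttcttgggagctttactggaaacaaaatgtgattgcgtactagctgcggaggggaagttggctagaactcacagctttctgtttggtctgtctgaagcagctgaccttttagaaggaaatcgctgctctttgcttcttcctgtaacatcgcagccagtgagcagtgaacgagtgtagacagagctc
Stat4 upstream (chr1:51986898-51987197, plus strand): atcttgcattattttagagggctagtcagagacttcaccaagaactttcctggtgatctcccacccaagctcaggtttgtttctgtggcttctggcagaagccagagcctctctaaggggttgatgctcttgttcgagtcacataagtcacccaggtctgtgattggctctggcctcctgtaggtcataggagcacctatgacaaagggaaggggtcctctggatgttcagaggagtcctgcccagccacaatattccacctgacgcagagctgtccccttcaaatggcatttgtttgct
Stat4 downstream (chr1:52007990-52008289, plus strand): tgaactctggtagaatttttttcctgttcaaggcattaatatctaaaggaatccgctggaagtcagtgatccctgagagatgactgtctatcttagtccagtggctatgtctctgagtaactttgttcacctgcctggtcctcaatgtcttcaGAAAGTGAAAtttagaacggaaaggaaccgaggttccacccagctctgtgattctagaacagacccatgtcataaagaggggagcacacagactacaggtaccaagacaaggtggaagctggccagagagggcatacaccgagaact
Capitals mark, on either strand, a match to GAAA, any 2 bases and GAAA again, a short form of the element that interferon-activated factors bind.

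All 9 members matched the RefSeq promoter table, with 12 windows. That motif, searched on both strands, was in 2 of the 12 windows, the downstream Stat4 window and the Stat2 window, and in 3.44% of all 32851 windows. The motif TTCNNNGAA, a form of the element that STAT dimers bind, reads the same on both strands and was in 0 of 12 windows and in 8.30% of all windows. A match describes letters in the window and is no evidence of binding. The Stat2 window (GRCm38.p6) is shown since Stat2 itself belongs to the interferon pathway:
Stat2 (chr10:128270248-128270547, plus strand): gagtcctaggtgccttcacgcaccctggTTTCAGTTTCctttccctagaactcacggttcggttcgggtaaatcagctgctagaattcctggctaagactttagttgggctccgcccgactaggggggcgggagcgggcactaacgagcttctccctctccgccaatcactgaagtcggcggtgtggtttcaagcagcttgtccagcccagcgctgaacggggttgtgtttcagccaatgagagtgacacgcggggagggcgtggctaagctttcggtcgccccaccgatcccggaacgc

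Transcripts annotated as retaining an intron took a visible part of some STATs and of Jak3. They made up 27.04%, 22.5% and 30.1% of Stat2 TPM (26.5 ± 3.8%), 14.5 ± 1.2% of Stat3, 13.3 ± 0.5% of Stat4, 12.5 ± 1.6% of Stat6 and 6.8 ± 0.4% of Jak3. The annotation lists no transcript of this type for Jak1, Jak2, Stat5a and Stat5b, so none could be measured there. In Stat2 they were led by Stat2-207 (8.84 ± 1.85%) and Stat2-206 (5.87 ± 1.30%), in Stat6 by Stat6-205 (8.13 ± 0.78%), in Stat4 by Stat4-204 (8.52 ± 1.24%) and in Jak3 by Jak3-204 (6.06 ± 0.40%). Many of these are short, and by expected counts, which are not per length, the protein-coding share of Stat2 was 93.6% and not 73.5%. Stat5b-203, a non-coding transcript, took 5.73%, 2.11% and 9.93% of Stat5b. Jak2-203, a shorter coding transcript of 638 codons with 0 windows of its own, took 5.64%, 9.87% and 8.82% of Jak2.

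Further genes overlap members. The 3′ ends of Stat3 and Stat5a overlap by 72 bases on opposite strands, those of Stat6 and Nab2 by 40 bases and those of Jak1 and Raver2 by 4 bases. Whether reads were counted by strand is not given in the sources used here. On the same strand, the long non-coding gene Gm28177 overlaps Stat4 by 29929 bases and shares 840 of its windows, 21.7% of them, and was given 1.19, 0.96 and 0.42 TPM.

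Upstream of the kinases, the receptors of the common gamma class were present as a full set. All 8 listed genes reached a TPM of at least 10, with a median of 243 TPM. Il2rg, the common gamma chain that Jak3 binds, had 1323, 1375 and 1243 TPM, and Il2rb, the interleukin-2 receptor chain bound by Jak1, had 903, 933 and 923 TPM. Il21r had 265, 296 and 250 TPM. Il2rg and Il2rb were above every one of the 9 members in each library. Il2ra, the remaining interleukin-2 receptor chain, had 256, 251 and 236 TPM, below Jak1 but above the other members in each library.

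Receptors that use Stat3 and Stat4 were mostly present. Of the gp130, interleukin-12 and interleukin-10 receptor list, 6 of 8 genes were detected, with a median of 68.4 TPM, led by Il27ra (302 ± 7.84 TPM), Il10rb (140 ± 7.42 TPM) and the gp130 gene Il6st (129 ± 3.02 TPM). The 2 with a mean TPM under 1 were Il23r and Il12rb2, the second chain of the interleukin-12 receptor that leads to Stat4. All 4 interferon receptor genes were detected (median 111 TPM). Ifngr1 had 522, 360 and 294 TPM, higher in library 1 than in the others, and Ifnar2 (118 ± 6.92 TPM) and Ifnar1 (104 ± 6.93 TPM) were more even.

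None of the 5 receptors reported here of the myeloid and hormone classes that signal through Jak2, namely Csf2rb, Csf3r, Epor, Ghr and Prlr, was detected, and their median was 0.217 TPM.

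Few ligand transcripts were abundant. Of 16 listed cytokine genes 6 were detected, and 2 reached a TPM of at least 10 in every library. Ebi3, a chain of interleukin-27 and interleukin-35, had 68.9, 61.9 and 63.1 TPM, Osm had 19.96, 31.9 and 22.8 TPM, and Ifng had 11.3, 6.25 and 14.3 TPM. The genes with a mean TPM under 1 were Il7, Il9, Il15, Il21, Il6, Il12a, Il12b, Il27 and Ifnb1.

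All 19 listed inhibitors of the pathway were detected, 17 of them at a TPM of at least 10 in every library, with a median of 60.9 TPM. The phosphatases Ptprc (CD45, 997 ± 35.6 TPM) and Ptpn6 (277 ± 28.8 TPM) and the STAT5-induced inhibitor Cish (259 ± 19.1 TPM) were the highest. All 9 listed Stat5 targets were detected, with a median of 131 TPM, led by the cyclin Ccnd2 (898 ± 42.5 TPM), Cish and the interleukin-2 receptor gene Il2ra (248 ± 10.7 TPM). With 1 group, no target's level can be tied to a STAT here. The 6 Stat6 and Stat3 targets were also all detected (median 113 TPM), with Batf (251 ± 56.7 TPM), Gata3 (134 ± 9.74 TPM) and Il4ra (116 ± 16.4 TPM) highest.

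**Figure D4:**
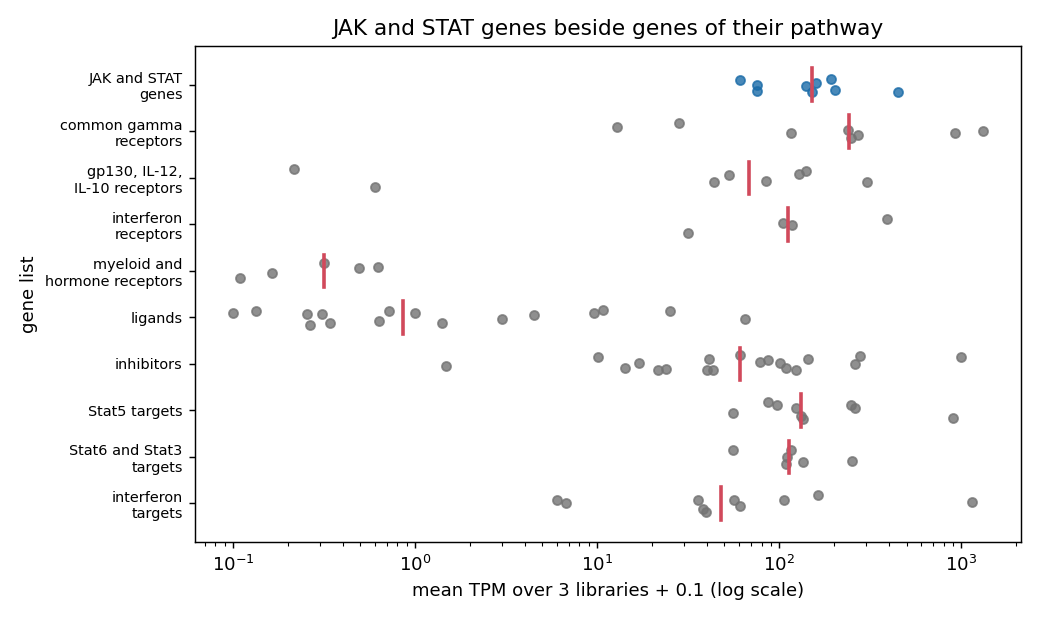
Mean TPM over 3 libraries plus 0.1 (horizontal axis, log scale) of the 9 JAK and STAT genes (blue) and of the genes of 9 pathway lists (grey), with a red line at each list's median. All 9 members lie above 60 TPM, while the myeloid and hormone receptor list stays below 1 TPM and the ligand list runs from 0 to 64.6 TPM.

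The libraries were then compared with each other. A chi-square test of rounded expected counts against Poisson noise, with TMM-scaled library sizes and Benjamini-Hochberg adjustment over 18253 genes, called 9 of 9 members at 0.05. It also called 77.2% of all genes tested and 84.8% of the 6731 genes that averaged 1000 counts or more, a depth all members pass, so the members' count is close to the background. The test compares these libraries, labelled technical, and no conditions, and it takes reads as independent. The differences were small. The ratio of the highest to the lowest TMM-scaled count was 1.04 for Stat3, 1.07 for Jak1, 1.08 for Stat6, 1.09 for Stat5b, 1.12 for Stat5a, 1.15 for Stat4, 1.21 for Stat2, 1.22 for Jak3 and 1.32 for Jak2. None of the 9 was called with a ratio of at least 1.5, beside 36.5% of all genes tested and 3.33% of those averaging 1000 counts or more. In the M4 counts 4 of 9 were called, Jak1, Jak2, Stat2 and Stat6, beside 52.1% of the genes tested.

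Jak2 and Jak3 were lowest in library 2. TMM-scaled counts of Jak2 were 8602, 6526 and 8299, with a log2 ratio of 0.40 for library 1 over library 2 and -0.35 for library 2 over library 3. Those of Jak3 were 13384, 11908 and 14490, with log2 ratios of 0.17 and -0.28. In library 1 against library 2, 4 members were called higher (background 29.6%), 2 were called lower (31.3%) and 3 were not called. Library 1 against library 3 gave 5 higher (23.1%) and 3 lower (26.0%), and library 2 against library 3 gave 5 higher (29.1%) and 3 lower (28.6%). These comparisons share libraries and are not independent of each other.

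Stat2, Stat5b and Jak2 were highest in library 1, and so were the interferon targets. Stat2 had TMM-scaled counts of 4986, 4366 and 4135. Its log2 ratio was 0.19 for library 1 over library 2 and 0.27 for library 1 over library 3, both called. The same ratios were 0.11 and 0.13 for Stat5b and 0.40 and 0.052 for Jak2, all called. Of the other members, Jak1, Stat4, Stat5a and Stat6 were highest in library 2, and Stat3 and Jak3 in library 3. Jak1 and Stat5a were lowest in library 1. All 10 listed interferon target genes were called higher in library 1 when set against library 2 (median log2 ratio 0.46) and also when set against library 3 (median 0.82). Over all genes tested, 29.6% and 23.1% were called higher in library 1, and these medians were -0.0067 and -0.0070. This background covers all genes averaging 10 counts or more and is not matched to the depth of the list. The list was written with earlier results of these data known, so its count is a description and no independent test. Ifit3 had 64.3, 38.4 and 16.5 TPM, Mx1 had 14.0, 2.54 and 3.42 TPM, and Rsad2 had 8.88, 6.67 and 2.30 TPM.

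All 3 encode antiviral proteins, and for each library 1 was the highest. Irf7 had 136, 108 and 73.9 TPM, Isg15 had 53.8, 31.5 and 28.2 TPM, and Ifit1 had 49.8, 38.1 and 19.4 TPM. Ifi27l2a, the most abundant of the list, had 1475, 1021 and 940 TPM. The remaining 3 were also highest in library 1. Oas1a had 70.8, 52.2 and 46.0 TPM, Usp18, which blocks the type I interferon receptor, had 71.5, 62.1 and 49.1 TPM, and Irf9, the partner of Stat2, had 181.9, 160.4 and 145.4 TPM. Between libraries 2 and 3 the list was less uniform, with 5 of 10 higher (background 29.1%) and 1 lower (28.6%) in library 2. The labels call these libraries technical replicates and name no difference in their handling.

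**Figure D5:**
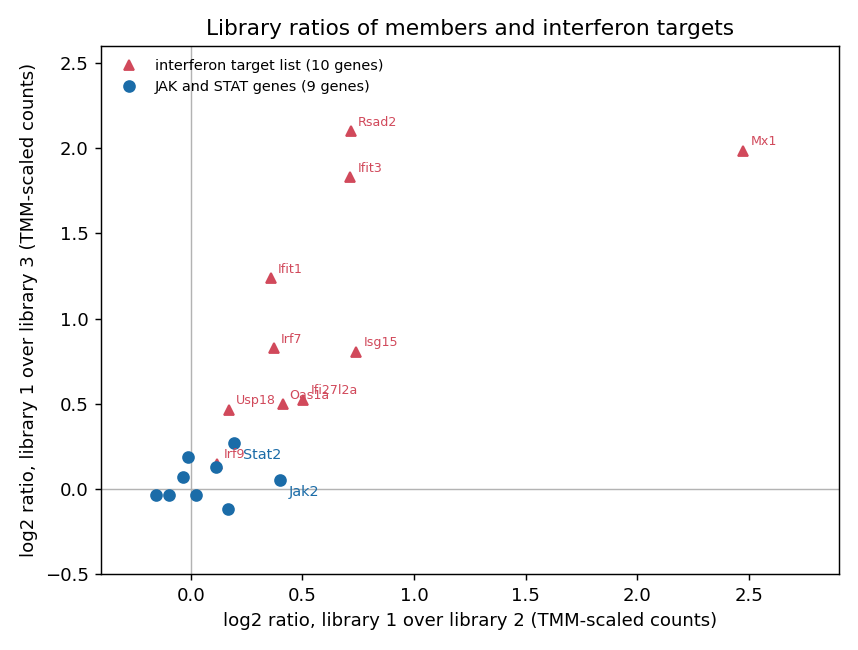
Log2 ratios of TMM-scaled counts, library 1 over library 2 (horizontal) and library 1 over library 3 (vertical), for the 9 JAK and STAT genes (blue circles) and 10 interferon target genes (red triangles). Each interferon target lies above 0 on both axes, while the members lie within 0.40 of 0 on both.

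The other lists were counted in the same way, and no difference between lists was tested. Over all genes tested, 29.6% were called higher and 31.3% lower in library 1 than in library 2. These shares were 23.1% and 26.0% for library 1 against library 3, and 29.1% and 28.6% for library 2 against library 3. Of the 8 common gamma receptors, 2 were called higher and 6 lower in library 1 than in library 2, and 1 higher and 4 lower in library 1 than in library 3. Of the 19 inhibitors, 5 were higher and 12 lower in library 1 than in library 2, and 1 higher and 11 lower in library 1 than in library 3. Of the 9 Stat5 targets, 2 were higher and 6 lower in library 1 than in library 2, and 1 higher and 6 lower in library 1 than in library 3. In library 2 against library 3, higher and lower calls were 4 and 2 for the common gamma receptors. They were 7 and 7 for the inhibitors and 4 and 3 for the Stat5 targets. Of the interferon receptors, 2 were higher and 2 lower in library 1 than in library 2, and 2 higher and 1 lower in library 1 than in library 3. In library 2 against library 3, 3 were higher and 0 lower. Of the gp130, interleukin-12 and interleukin-10 receptors, 3 were higher and 4 lower in library 1 than in library 2, and the same numbers held against library 3. In library 2 against library 3, 0 were higher and 3 lower. Of the ligands, 6 of 11 tested were higher and 4 lower in library 1 than in library 2. Against library 3, 2 of 12 tested were higher and 6 lower in library 1. Of the 6 Stat6 and Stat3 targets, 3 were higher and 3 lower in library 1 than in library 2, and 2 higher and 4 lower than in library 3. In library 2 against library 3, higher and lower calls were 3 and 4 for the ligands and 2 and 3 for the Stat6 and Stat3 targets. The myeloid and hormone receptors, all under 1 TPM, had 3 higher and 0 lower of 3 tested in library 1 over library 2. They had 1 higher and 0 lower of 3 in library 1 over library 3, and 0 higher and 2 lower of 3 in library 2 over library 3.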

How the data were processed

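RNA of 1 Treg biosample was sequenced in 3 libraries. The authors' M21 gene and transcript tables, made from alignments to mm10 transcripts, hold expected counts, posterior mean counts with their SD, TPM, FPKM, and a posterior mean of the TPM with bounds of unstated level, per the file headers. For each transcript, the deposited tables also give the percent of its gene's TPM, per the file headers. A second deposited table holds whole-number counts per M4 gene, without a header. Aligner and counting program are not given in the sources used here. In all rows with reads the effective length is 49 bases below the length. The posterior mean TPM of the members is below their TPM, so a TPM can lie outside the bounds, which belong to the posterior mean.

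The members, pathway lists, markers and tests were chosen with earlier results of these data known. Expected counts were rounded to whole numbers. Rows for transfer RNAs and spike-ins (0.170%, 0.170% and 0.218% of expected counts) stayed out of library sizes and tests. M4 totals were 9718021, 8945992 and 9904722, and 22195 of 22457 M4 genes matched an M21 gene. TMM factors came from edgeR 4.0.16 and alternative size factors from DESeq2 1.42.0 in R 4.3.3. The chi-square test used genes averaging 10 counts or more and was tested on simulated data. A single group leaves no contrast for a quasi-likelihood test. Gene pairs were compared on log2(TPM + 1) by an exact sign-flip permutation test. Windows of 50 bases, coding identity (Biopython 1.88) and printed transcript sequence came from the M21 annotation on mm10, and promoters from RefSeq. Python 3.11.15 with scipy 1.17.1, pandas 2.3.3, numpy 2.4.6 and matplotlib 3.10.9 did the rest. Named genes are the 9 members, their transcripts with a mean share of at least 5%, the 3 most abundant genes of each list, list members with a mean TPM under 1 by name only, and all interferon targets. No gene was named for a pattern like that of a member, since 3 technical libraries of 1 group give no pattern across conditions. One gene of a receptor list is not reported here and was left out of that list's count and median.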

Additional observations from a re-analysis of the deposited data

How the results depend on the processing

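The count of 29 pairs apart was the same with posterior mean TPM, FPKM, a pseudocount of 0.1 or no condition on bounds. It was 32 in expected counts without length correction, 31 in M4 counts per kilobase, and 32, 32 and 30 without libraries 1, 2 and 3. In M4 counts per kilobase, 10 log2 differences turned: Stat3 minus Stat6 (-0.23), Stat6 minus Jak3 (-0.12), Jak3 minus Stat4 (-0.063), Stat5a minus Jak2 (-0.55), Stat5b minus Jak2 (-0.46), Stat3 minus Jak3 (-0.35), Stat3 minus Stat4 (-0.41), Stat6 minus Stat4 (-0.18), Stat5b minus Stat2 (-0.092) and Stat5a minus Stat2 (-0.18). Without length correction 4 turned: Stat4 minus Stat5b (-0.89), Stat5a minus Jak2 (-0.39), Stat6 minus Stat5b (-0.060) and Jak3 minus Stat5b (-0.14). Leaving out each library, Jak3 minus Stat4 ran between -0.061 (without library 3) and 0.18, and Stat5a minus Jak2 between -0.15 (without library 2, then apart) and 0.11. Stat4 and Stat5b were apart without library 3 (0.18), and Jak2 and Stat2 without library 1 (0.32) or library 2 (0.37). The cause of these turns was not tested. All 9 members differed between libraries with DESeq2 size factors, with no filter and with posterior mean counts, 4 did in M4 counts, 0 at a ratio of at least 1.5, and 6 to 8 with a library left out, with 6 without library 3, where Stat3, Stat4 and Stat6 were no longer called. For single members 10 library calls were lost under an alternative. Over 12 pairs, the 8 neighbours and 4 others, 3 calls were lost and 12 gained. By expected counts, which are not per length, the leading transcript took 93.6% of Stat2, 86.9% of Stat3, 90.7% of Stat4, 97.4% of Stat6, 98.9% of Jak1 and 96.3% of Jak2, and coding transcripts took 93.6% of Stat2, 97.3% of Stat3, 96.0% of Stat4, 99.1% of Stat5b, 97.4% of Stat6 and 98.9% of Jak1. Of the ligands, 2 reached a TPM of at least 10. All members stayed detected under every alternative run. No paired analysis was possible because all libraries belong to 1 group.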
